A study of Mus musculus with 9 samples.

Results

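Genes of glycolysis, glucose uptake and lactate handling were followed in mouse naive CD4+ T cells, sorted as CD62L-high and CD44-low and stimulated for 24 h through CD3 and CD28. The set held 36 genes chosen by symbol from a table of 23849 genes. All 36 were found once each and all 36 passed the filter for testing, a mean of at least 1 FPKM (fragments divided by transcript length and by the depth of the library) over the 9 libraries. The 3 groups of 3 libraries were Fosl2 Tg, in which the submitters describe Fosl2 as overexpressed, cells labelled Fosl2 Ko with the genotype Fosl2fl/fl CD4-cre+, and Control, with the genotype wt. CD4-cre recombines floxed alleles in T cells from a thymic stage on. Fosl2 encodes a transcription factor of the AP-1 family. The transgene's promoter and the strain and age of the mice are not given in the labels used here, and nothing there ties a library to an animal of its own. The p-values therefore cover only the variation among these samples, part or all of which could be technical.

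The deletion was not visible in the level of Fosl2 mRNA. Fosl2 stood at 30.9, 19.2 and 24.5 FPKM in Fosl2 Tg libraries, at 19.2, 17.8 and 17.1 FPKM in the libraries labelled Fosl2 Ko and at 7.77, 7.44 and 6.15 FPKM in Control libraries. Every library labelled Fosl2 Ko was above every Control library, and in gene-level values a counted shortened transcript and an exchange of labels cannot be told apart. The group is called by its label throughout, as the Ko-labelled libraries.

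Glycolysis turns glucose into pyruvate in the cytosol. Pyruvate is then reduced to lactate and exported, or enters the mitochondrion through pyruvate dehydrogenase. T cells that leave the naive state raise glucose uptake and lactate release when stimulated, and transcription factors such as Myc and Hif1a are known to drive many of the genes involved. Glucose enters through Slc2a transporters, hexokinases trap it, phosphofructokinase commits it under the control of the Pfkfb enzymes, and the steps from Gapdh to Pkm yield ATP and NADH. Lactate dehydrogenase restores NAD+, and Slc16a1 and Slc16a3 carry lactate across the plasma membrane.

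Depth was estimated from the steps between the lowest FPKM values at 42.0 to 61.0 M (mega) fragments in Fosl2 Tg, 33.9 to 60.8 M fragments in Ko-labelled libraries and 48.2 to 54.0 M fragments in Control. By that estimate and the longest annotated transcript, the members were covered by 69.6 (Egln3) to 9.07e+04 (Ldha) fragments per library. Markers of CD4 T cells summed to 2138 to 2237 FPKM in Fosl2 Tg, 1636 to 1718 FPKM in Ko-labelled libraries and 1860 to 1912 FPKM in Control, with none of the 10 at 0. Cd4 itself did not follow the order of these sums. It was at 164, 171 and 162 FPKM in Fosl2 Tg and 197, 187 and 197 FPKM in Ko-labelled libraries. In Control Cd4 was at 184, 186 and 165 FPKM. The 2 CD8 T cell markers summed to 10.7 to 12.7 FPKM in Fosl2 Tg, 6.12 to 7.49 FPKM in Ko-labelled libraries and 11.9 to 12.8 FPKM in Control, with Cd8a at or below 0.462 FPKM. The 4 NK cell markers summed to 2.14 to 8.66 FPKM in Fosl2 Tg, 0.353 to 0.461 FPKM in Ko-labelled libraries and 1.09 to 1.68 FPKM in Control, with Ncr1 at 0 in all 9 libraries. Nearly all of each sum was Klrd1, at 8.65, 2.31 and 2.14 FPKM in Fosl2 Tg libraries 1, 2 and 3. Klrd1 was at 0.425, 0.353 and 0.357 FPKM in Ko-labelled libraries and 1.68, 1.09 and 1.39 FPKM in Control. Klrb1c stayed at or below 0.0361 FPKM and Klre1 at or below 0.0223 FPKM. B cell markers (7 genes), myeloid markers (7 of 8 found) and red blood cell markers (6 of 8 found) each summed to at most 3.34 FPKM. The part of these markers in the results was not tested. In bulk RNA, fewer cells of a type and less RNA per cell cannot be told apart.

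A pair of libraries stood low in this gene set within their own groups. Fosl2 Tg library 1 was the lowest of its group for 25 of 36 members, and Control library 1 for 25 of 36. The same count was not made over all genes. The median log2 deviation from the group mean was −0.079 for members and −0.023 over all genes tested in Fosl2 Tg library 1. In Control library 1 it was −0.060 and −0.013. Both libraries were thus also the lowest of their groups over all genes tested, by less. Summed over the members, Fosl2 Tg libraries held 3103, 3680 and 3752 FPKM, Ko-labelled libraries 4207, 4298 and 4281 FPKM, and Control libraries 3945, 4310 and 4532 FPKM. All 3 Fosl2 Tg sums lay below all Control sums, and the sums of Ko-labelled libraries lay within the Control range.

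In Fosl2 Tg against Control, both glucose transporters, 4 of 9 genes of upper glycolysis, 2 of 7 of lower glycolysis and 4 of 4 lactate genes fell. In all, 15 members fell and 2 rose (Pfkp and Egln3) in limma at an adjusted p under 0.05 over all 10340 genes tested. That is 41.7% lower and 5.56% higher, where 15.1% of all genes tested were lower and 8.53% higher. The median log2 difference of the members was −0.19, against −0.03 over all genes tested. In Ko-labelled libraries against Control, 3 members rose (Eno3, Slc16a3 and Pfkfb3) and 0 fell, where 2.14% of all genes were higher and 2.32% lower. At an unadjusted p under 0.05 in limma, 6 members were higher (Slc2a3, Pfkfb1, Pfkfb3, Eno3, Slc16a3 and Pdk3) and 3 lower (Hk1, Egln1 and Egln3). The share over all genes was not computed there. With a weight per library, limma called 10 members lower (27.8%, against 31% of all genes) and 10 higher (27.8%, against 20.3%). Of the 16 members that the authors' deposited table holds, it lists 1 as lower (Egln3). In Fosl2 Tg against Ko-labelled libraries, 17 members fell and 3 rose (Egln3, Pfkfb4 and Pfkfb2), where 20.7% of all genes were lower and 17.4% higher. The comparisons share libraries with each other, so their values are given side by side and not as separate evidence.

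The count of lower members in Fosl2 Tg against Control depended on single libraries. It was 4 (11.1%, against 5.52% of all genes) without Control library 2, 6 (16.7%, against 7.07%) without Control library 3, 7 (19.4%, against 9.35%) without Ko-labelled library 3, and 12 (33.3%, against 12.5%) without Fosl2 Tg library 1. Without both Fosl2 Tg library 1 and Control library 1 it was 18 (50%, against 19.7%). With the small RNA genes left out and the libraries rescaled it was 9 (25%, against 10.4%). With only these 2 groups in the fit it was 2, or 5.56% of members against 5.55% of all genes, so that the members' share then equalled the background. Against Ko-labelled libraries, the count of lower members was 11 (30.6%) without any 1 of those 3 libraries, against 10.6% to 13.3% of all genes. Over the 3 comparisons, no called difference changed sign under any alternative that gave it a value, and 16 of the 40 called differences passed under all of those. Those 16 include Eno3 and Slc16a3 in all 3 comparisons, Egln3 in both comparisons of Fosl2 Tg, and Slc2a3, Hk2, Tpi1, Pfkfb1, Pfkfb3, Pgam1, Slc16a1 and Pdk3 in Fosl2 Tg against Ko-labelled libraries.

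The other 24 calls were lost in at least 1 of the 18 or 19 alternatives that gave a value. In Fosl2 Tg against Control, the call was lost in 15 alternatives for Ldhb, 11 each for Slc2a1 and Pdk3, 9 for Hk2, 7 each for Slc2a3 and Egln1, and 5 for Ldha. It was lost in 4 each for Pfkp, Pfkfb3 and Slc16a1, in 3 each for Pfkm, Tpi1 and Pgam1, and in 1 for Pfkl. In Fosl2 Tg against Ko-labelled libraries, it was lost in 13 alternatives for Pfkm, 9 for Pgk1, 8 for Pfkfb2, 6 for Ldhb, 4 for Ldha, 3 for Pfkl, 2 for Gapdh and 1 each for Pfkfb4 and Pdha1. In Ko-labelled libraries against Control, it was lost in 4 for Pfkfb3.

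**Figure D1:**
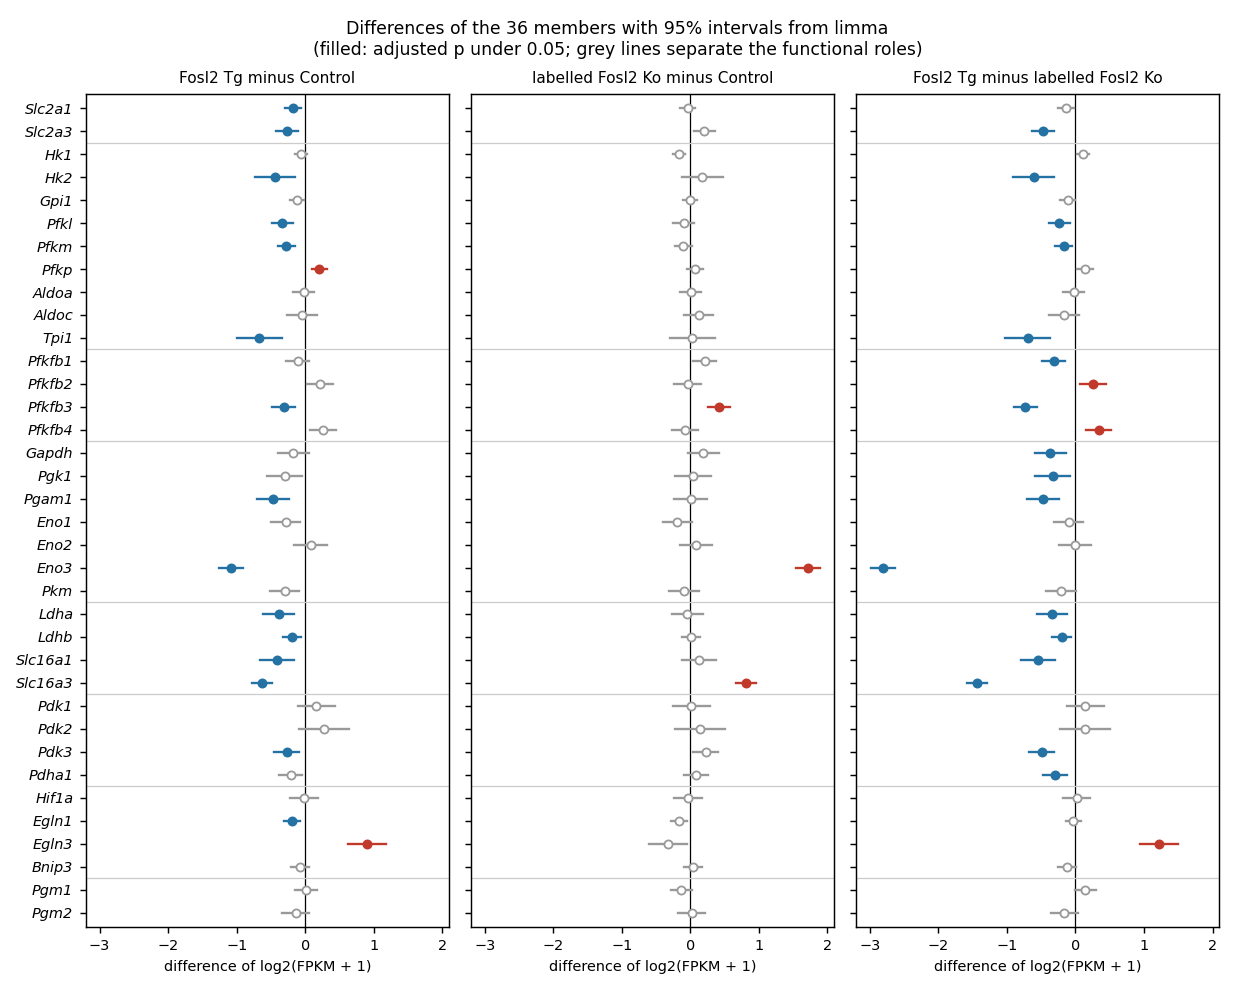
Difference of log2(FPKM + 1) for each of the 36 members in the 3 comparisons, with the 95% interval from limma; filled points passed an adjusted p of 0.05, red higher and blue lower. Eno3 and Slc16a3 stand left of 0 in Fosl2 Tg minus Control and right of 0 in Ko-labelled libraries minus Control, and Egln3 stands right of 0 in both comparisons of Fosl2 Tg.

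The promoters of 4 members are shown because these genes carry the results: Eno3 and Slc16a3 fell in Fosl2 Tg and rose in Ko-labelled libraries, Egln3 rose in Fosl2 Tg, and Ldha had the highest level of the set. Each line gives the 250 bases before the annotated start site, 5′ to 3′ on the strand of the gene, from RefSeq on GRCm38.p6, taken at the start site nearest to the 5′ edge of the gene in the deposited table (583 bases from it for Slc16a3). Capitals mark ACGTG on either strand, the form with A of the core of the hypoxia response element bound by Hif1a. The form with G, GCGTG, was not searched and is not marked. CACGTG, an E-box bound by Myc and Max, holds ACGTG on both strands.
Eno3 chr11:70656926-70657175, + strand: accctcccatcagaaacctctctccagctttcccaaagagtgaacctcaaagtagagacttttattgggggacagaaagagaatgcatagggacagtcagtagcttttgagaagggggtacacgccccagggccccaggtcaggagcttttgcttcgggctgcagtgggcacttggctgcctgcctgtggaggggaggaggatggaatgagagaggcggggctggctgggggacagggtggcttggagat
Slc16a3 chr11:120948817-120949066, + strand: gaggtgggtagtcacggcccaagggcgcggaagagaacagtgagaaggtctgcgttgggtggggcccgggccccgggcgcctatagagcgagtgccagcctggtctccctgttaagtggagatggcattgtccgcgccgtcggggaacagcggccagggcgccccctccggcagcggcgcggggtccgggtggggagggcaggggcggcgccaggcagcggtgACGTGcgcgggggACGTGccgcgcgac
Egln3 chr12:54203875-54204124, - strand: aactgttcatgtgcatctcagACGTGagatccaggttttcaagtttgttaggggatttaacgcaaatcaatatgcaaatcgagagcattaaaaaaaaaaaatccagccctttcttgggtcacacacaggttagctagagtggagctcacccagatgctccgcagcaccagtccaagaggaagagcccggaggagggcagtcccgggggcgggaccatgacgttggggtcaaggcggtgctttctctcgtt
Ldha chr7:46845554-46845803, + strand: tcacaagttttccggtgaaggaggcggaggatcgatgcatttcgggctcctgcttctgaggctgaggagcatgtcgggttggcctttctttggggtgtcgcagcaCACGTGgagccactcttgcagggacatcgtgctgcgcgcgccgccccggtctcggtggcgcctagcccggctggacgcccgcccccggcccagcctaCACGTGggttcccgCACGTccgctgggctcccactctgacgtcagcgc

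Over 35 members with a RefSeq promoter, searched on both strands from 250 bases before to 50 after the start site, ACGTG was found in 18 (51.4%), against 19.6% of all 32851 promoters of that length. Only the start site nearest to the 5′ edge of each gene was counted, and Slc2a3 had no entry. Counting all 53 start sites listed for these members, 23 of 35 held ACGTG at one of them or more, with Hk1, Aldoa, Aldoc, Pfkfb2 and Pkm added. Among the 4 genes shown, ACGTG lay at −229 in Egln3, at −27 and −14 in Slc16a3 and at none in Eno3, counted from the start site. In Ldha it matched at −145, −144, −48, −47 and −34. The matches at −145 and −144 are opposite strands of the same CACGTG, as are those at −48 and −47. The Eno3 line does hold GCGTG on the other strand (cacgc), a form left out of these counts. CACGTG was in 6 of 35 members (17.1%), against 7.15% of all promoters. The AP-1 motif TGANTCA was in 0 of 35 at the nearest start site and in 1 when all start sites were counted (Aldoa, at −218 from another start), against 7.81% of all promoters, and TGACGTCA, which dimers of AP-1 and ATF proteins can bind, was in 1, Ldha at −12 (2.86% of members, against 1.79% of all promoters). A match describes the letters only, and no match says only that these letters are not in this window.

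Both glucose transporter genes fell in Fosl2 Tg. Slc2a1 (GLUT1), the main transporter of activated T cells, was at 23.6, 25.3 and 25.4 FPKM in Fosl2 Tg, 26.8, 26.8 and 28.3 FPKM in Ko-labelled libraries and 26.9, 29.3 and 28.2 FPKM in Control. Fosl2 Tg libraries lay below all others, while the other groups overlapped. The log2 difference of Fosl2 Tg from Control was −0.18 ± 0.05 (SE from limma, adjusted p = 0.0369). Slc2a3 (GLUT3), a high-affinity transporter, was at 6.83, 6.35 and 6.26 FPKM in Fosl2 Tg, 9.05, 9.92 and 9.21 FPKM in Ko-labelled libraries and 8.74, 8.07 and 7.26 FPKM in Control. The 3 groups did not overlap. The log2 difference of Fosl2 Tg was −0.27 ± 0.07 from Control (limma adjusted p = 0.0281) and −0.47 ± 0.07 from Ko-labelled libraries (limma adjusted p = 0.00166), and the difference of 0.21 ± 0.07 between Ko-labelled libraries and Control did not pass (limma adjusted p = 0.15).

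Among the 9 genes of upper glycolysis, from hexokinase to triosephosphate isomerase, 4 fell and 1 rose in Fosl2 Tg against Control. Hk2, the inducible hexokinase, was at 10.4, 15.2 and 14.9 FPKM in Fosl2 Tg, 21.1, 21.0 and 20.4 FPKM in Ko-labelled libraries and 16.8, 19.5 and 18.9 FPKM in Control. All Fosl2 Tg libraries were below all others, with library 1 lowest. The log2 difference from Control was −0.44 ± 0.13 (limma adjusted p = 0.0426), or −0.27 ± 0.06 without Fosl2 Tg library 1 (limma adjusted p = 0.0219). It missed the threshold without Control library 2 (limma adjusted p = 0.127), Control library 3 (0.118) or any 1 Ko-labelled library. The difference from Ko-labelled libraries was −0.61 ± 0.13 (limma adjusted p = 0.00855). The constitutive hexokinase Hk1 was at 31.5, 32.3 and 33.5 FPKM in Fosl2 Tg, 30.3, 29.6 and 30.2 FPKM in Ko-labelled libraries and 33.6, 34.7 and 33.3 FPKM in Control. Its values in Ko-labelled libraries were below all others, but no comparison passed (limma adjusted p = 0.0541 against Control, for a log2 difference of −0.17 ± 0.04).

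The 3 phosphofructokinase genes, which encode the committing step, did not move together. Pfkl, the liver-type subunit, was at 27.0, 32.0 and 30.7 FPKM in Fosl2 Tg, 36.1, 34.6 and 35.2 FPKM in Ko-labelled libraries and 35.98, 37.95 and 39.65 FPKM in Control. Pfkm, the muscle-type subunit, was at 4.23, 4.80 and 4.16 FPKM in Fosl2 Tg, 5.01, 5.07 and 5.13 FPKM in Ko-labelled libraries and 5.400, 5.662 and 5.533 FPKM in Control. Pfkp, the platelet-type subunit, was at 39.3, 42.3 and 43.5 FPKM in Fosl2 Tg, 38.4, 37.7 and 37.0 FPKM in Ko-labelled libraries and 34.4, 36.9 and 36.6 FPKM in Control. Fosl2 Tg libraries were thus the lowest 3 for Pfkl and Pfkm and the highest 3 for Pfkp. Against Control, Pfkl differed by −0.33 ± 0.07 in log2 (limma adjusted p = 0.0123), Pfkm by −0.28 ± 0.05 (0.0114) and Pfkp by 0.21 ± 0.05 (0.0232). Against Ko-labelled libraries, Pfkl differed by −0.23 ± 0.07 (limma adjusted p = 0.0264) and Pfkm by −0.17 ± 0.05 (0.0389), while Pfkp did not pass (0.14 ± 0.05, 0.0533). Pfkp made up 54.9 ± 1.2% of the summed FPKM of the 3 genes in Fosl2 Tg, 48.3 ± 0.4% in Ko-labelled libraries and 45.3 ± 0.6% in Control (mean ± SD, n = 3), a description without a test.

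Tpi1, triosephosphate isomerase, had the largest log2 difference of the upper pathway in both comparisons of Fosl2 Tg. It was at 91.7, 136 and 135 FPKM in Fosl2 Tg, 191, 198 and 191 FPKM in Ko-labelled libraries and 174, 189 and 208 FPKM in Control. Fosl2 Tg stood below the others without overlap, while Ko-labelled libraries lay inside the Control range. The log2 difference of Fosl2 Tg was −0.67 ± 0.14 from Control (limma adjusted p = 0.0152; −0.49 ± 0.07 without Fosl2 Tg library 1) and −0.70 ± 0.14 from Ko-labelled libraries (limma adjusted p = 0.008). Its annotated exons overlap those of Spsb2 on the other strand, and no source used here says whether counting used strand. The same holds for Slc2a1 with Gm12868, Hk1 with Hk1os, Gpi1 with Gm26762, Pfkm with Senp1, Pfkp with Pitrm1, Aldoa with Fam57b, Gapdh with Iffo1, Pfkfb1 with Apex2, Pfkfb2 with Yod1, Pdha1 with Map3k15, Hif1a with Gm15283, Bnip3 with Gm45507 and Pgm2 with Itgb3bp. On the same strand, where strand cannot separate them, exons overlap for Pfkm with Gm26513, Pfkfb2 with Gm29427, Pkm with Gm49759 and Hif1a with Gm49321.

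The other genes of the upper pathway passed in no comparison. Gpi1, which isomerizes glucose 6-phosphate, averaged 138 ± 4.8 FPKM in Fosl2 Tg, 149 ± 0.92 FPKM in Ko-labelled libraries and 150 ± 4.3 FPKM in Control (SD, n = 3 each). Aldoa, the main aldolase of muscle and many other tissues, averaged 461 ± 22 FPKM in Fosl2 Tg, 470 ± 9.4 FPKM in Ko-labelled libraries and 469 ± 30 FPKM in Control (SD, n = 3 each). Its log2 difference of Fosl2 Tg from Control was −0.02 with a 95% interval of −0.17 to 0.13. Aldoc, the brain aldolase, stayed between 0.89 and 1.54 FPKM in all libraries. The 2 phosphoglucomutase genes passed in no comparison either, with Pgm1 between 9.55 and 11.8 FPKM and Pgm2 between 17.3 and 23.3 FPKM. The table's Pgm1 lies on chromosome 5 and its Pgm2 on chromosome 4, and present RefSeq symbols exchange these names.

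**Figure D2:**
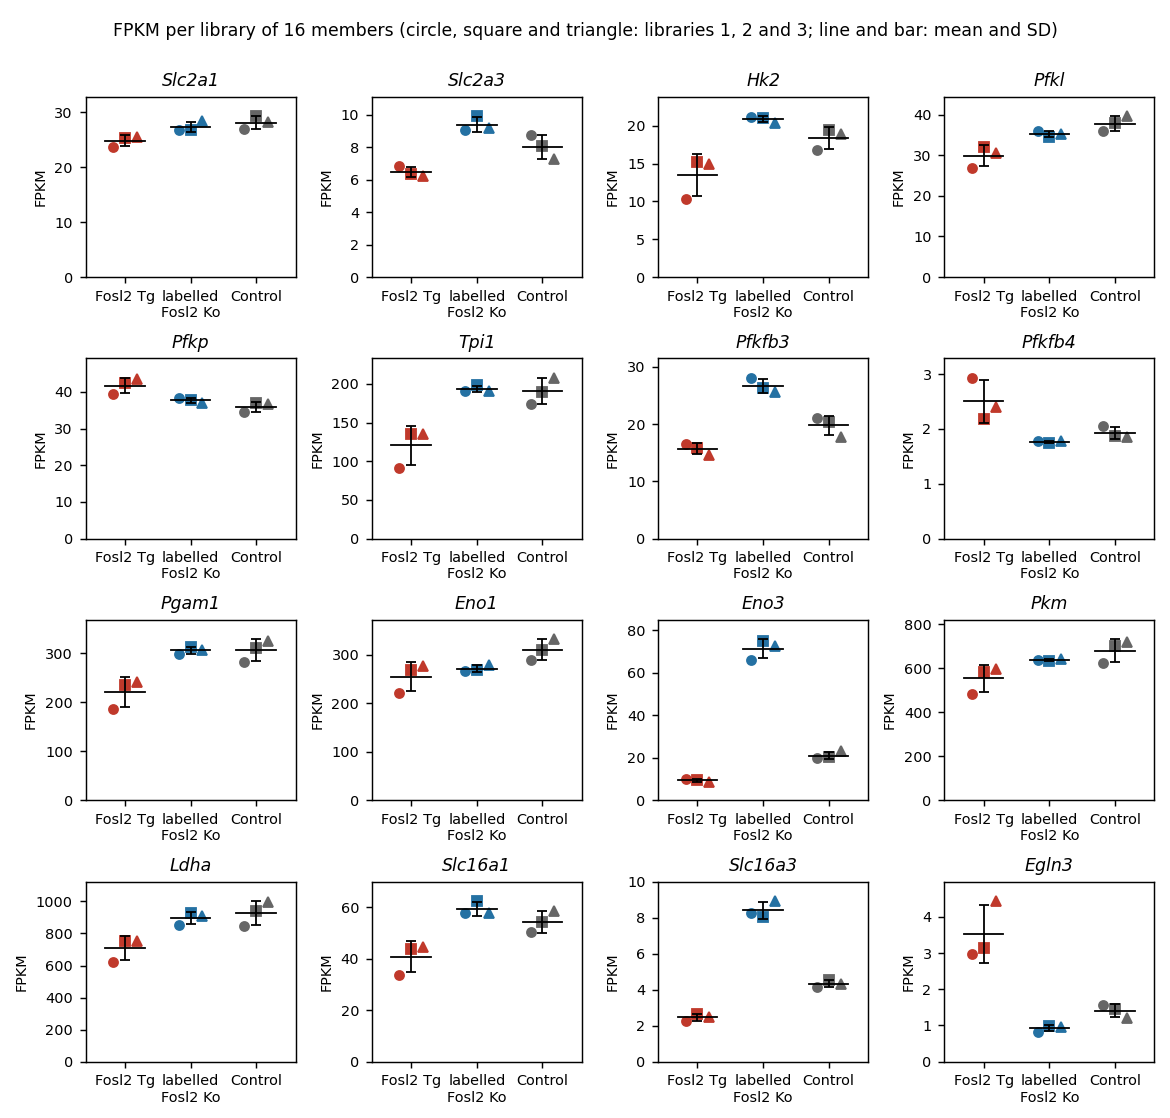
FPKM in each library for 16 members, on axes that start at 0, for Fosl2 Tg, Ko-labelled libraries and Control; symbols mark library 1 (circle), 2 (square) and 3 (triangle), and lines and bars give the mean and SD. Fosl2 Tg library 1 is the lowest point for Hk2, Tpi1, Pgam1, Pkm, Ldha and Slc16a1. The 3 groups of Eno3, Slc16a3, Pfkfb3, Egln3, Slc2a3, Hk2, Pfkp and Pfkfb4 do not overlap.

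The 4 Pfkfb genes encode the enzymes that make and remove fructose 2,6-bisphosphate, the activator of phosphofructokinase, and they split by isoform. Pfkfb3, the isoform with the strongest kinase activity, was at 16.6, 15.8 and 14.6 FPKM in Fosl2 Tg, 28.1, 26.3 and 25.6 FPKM in Ko-labelled libraries and 21.0, 20.4 and 17.8 FPKM in Control. The groups did not overlap, with Fosl2 Tg lowest and Ko-labelled libraries highest. The log2 differences were −0.31 ± 0.07 for Fosl2 Tg from Control (limma adjusted p = 0.0206), 0.42 ± 0.07 for Ko-labelled libraries from Control (0.0169) and −0.73 ± 0.07 between Fosl2 Tg and Ko-labelled libraries (0.000253). The rise in Ko-labelled libraries missed the threshold when Control library 2 or any 1 Ko-labelled library was left out, with a limma adjusted p of up to 0.0801. Pfkfb1 fell in Fosl2 Tg against Ko-labelled libraries and did not pass against Control, with 1.82, 1.55 and 1.82 FPKM in Fosl2 Tg, 2.42, 2.63 and 2.19 FPKM in Ko-labelled libraries and 1.82, 2.03 and 1.98 FPKM in Control (log2 difference from Ko-labelled libraries −0.32 ± 0.07, limma adjusted p = 0.0116).

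Pfkfb4 and Pfkfb2 rose in Fosl2 Tg against Ko-labelled libraries. Pfkfb4 was at 2.94, 2.18 and 2.41 FPKM in Fosl2 Tg, 1.78, 1.74 and 1.78 FPKM in Ko-labelled libraries and 2.05, 1.87 and 1.86 FPKM in Control. All Fosl2 Tg libraries were above all others. It was higher in Fosl2 Tg than in Ko-labelled libraries by 0.34 ± 0.08 in log2 (limma adjusted p = 0.0151), and the difference of 0.26 ± 0.08 from Control missed the threshold (0.0546). Pfkfb2, the heart isoform, was at 3.14, 2.66 and 2.87 FPKM in Fosl2 Tg, 2.32, 2.19 and 2.24 FPKM in Ko-labelled libraries and 2.67, 2.40 and 1.99 FPKM in Control. It rose in Fosl2 Tg against Ko-labelled libraries (0.26 ± 0.08, limma adjusted p = 0.0419) and overlapped with Control. Pfkfb3 made up 68.7 ± 2.1% of the summed FPKM of the 4 genes in Fosl2 Tg, 80.6 ± 0.6% in Ko-labelled libraries and 76.0 ± 0.6% in Control (mean ± SD, n = 3).

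In lower glycolysis, Eno3 had the largest differences of all 36 members on the log2(FPKM + 1) scale, falling in Fosl2 Tg and rising in Ko-labelled libraries. By the ratio of group means, Egln3 differed more than Eno3 in Fosl2 Tg against Control. Eno3 encodes the beta subunit of enolase, known from skeletal muscle. The gene lies at chr11:70657176-70662513 (mm10). It was at 10.0, 9.35 and 8.63 FPKM in Fosl2 Tg, 66.1, 74.8 and 72.6 FPKM in Ko-labelled libraries and 19.95, 20.06 and 22.97 FPKM in Control. The groups stood far apart, with Ko-labelled libraries at 3.39 times the Control mean and Fosl2 Tg at 0.444 times the Control mean. The log2 differences were −1.09 ± 0.08 for Fosl2 Tg from Control (limma adjusted p = 0.000189), 1.72 ± 0.08 for Ko-labelled libraries from Control (2.59e-05) and −2.81 ± 0.08 between Fosl2 Tg and Ko-labelled libraries (5.81e-07).

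The other enolase genes passed in no comparison. Eno1, the ubiquitous enolase and the one with the highest FPKM of the 3, was at 220, 268 and 277 FPKM in Fosl2 Tg, 266, 269 and 280 FPKM in Ko-labelled libraries and 289, 310 and 332 FPKM in Control. Control libraries were highest, and the other groups overlapped (log2 difference of Fosl2 Tg from Control −0.29 ± 0.09, limma adjusted p = 0.0542). Eno2, the neuronal enolase, stayed between 1.33 and 1.98 FPKM. Eno3 therefore made up 3.56 ± 0.67% of the summed enolase FPKM in Fosl2 Tg, 20.7 ± 0.9% in Ko-labelled libraries and 6.31 ± 0.22% in Control (mean ± SD, n = 3).

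Among the other steps from Gapdh to Pkm, Pgam1 alone fell in Fosl2 Tg against Control. Pgam1, phosphoglycerate mutase, was at 186, 236 and 242 FPKM in Fosl2 Tg, 299, 314 and 306 FPKM in Ko-labelled libraries and 282, 312 and 326 FPKM in Control. Fosl2 Tg did not overlap with either group. Its log2 difference was −0.47 ± 0.10 from Control (limma adjusted p = 0.0159; −0.36 ± 0.07 without Fosl2 Tg library 1) and −0.48 ± 0.10 from Ko-labelled libraries (0.00951). Pkm, the pyruvate kinase gene, was at 481, 583 and 596 FPKM in Fosl2 Tg, 636, 633 and 643 FPKM in Ko-labelled libraries and 622, 700 and 719 FPKM in Control, and missed the threshold against Control (log2 difference −0.30 ± 0.09, limma adjusted p = 0.0504).

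Gapdh and Pgk1, which yield NADH and ATP, fell in Fosl2 Tg against Ko-labelled libraries and did not pass against Control. Gapdh was at 151, 176 and 187 FPKM in Fosl2 Tg, 238, 207 and 218 FPKM in Ko-labelled libraries and 175, 201 and 205 FPKM in Control (log2 difference from Ko-labelled libraries −0.37 ± 0.10, limma adjusted p = 0.021). Pgk1 was at 348, 442 and 454 FPKM in Fosl2 Tg, 503, 532 and 524 FPKM in Ko-labelled libraries and 462, 501 and 560 FPKM in Control (−0.34 ± 0.11, limma adjusted p = 0.0453). For both, Fosl2 Tg was below Ko-labelled libraries without overlap. Aldoa, Gapdh, Pgk1, Pgam1, Eno1 and Ldha have named pseudogene or retrogene copies in GENCODE, so fragments could have been split between copies and their levels are uncertain.

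The 4 genes of lactate handling each fell in Fosl2 Tg against Control and against Ko-labelled libraries. Ldha, which reduces pyruvate to lactate, was at 621, 753 and 756 FPKM in Fosl2 Tg, 855, 927 and 909 FPKM in Ko-labelled libraries and 847, 938 and 998 FPKM in Control. Its log2 difference was −0.39 ± 0.10 from Control (limma adjusted p = 0.0269) and −0.34 ± 0.10 from Ko-labelled libraries (0.0265). Ldhb, the heart-type subunit, was at 20.9, 22.5 and 21.4 FPKM in Fosl2 Tg, 25.6, 24.5 and 24.8 FPKM in Ko-labelled libraries and 26.1, 22.8 and 25.7 FPKM in Control (−0.19 ± 0.06 from Control, limma adjusted p = 0.0442; −0.20 ± 0.06 from Ko-labelled libraries, 0.0256). Fosl2 Tg was lowest for both genes without overlap.

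Slc16a1 (MCT1) and Slc16a3 (MCT4) encode the monocarboxylate transporters that move lactate, and MCT4 is known from cells with high lactate export. Slc16a3 lies at chr11:120948484-120959000 (mm10). It was at 2.24, 2.66 and 2.49 FPKM in Fosl2 Tg, 8.26, 8.05 and 8.93 FPKM in Ko-labelled libraries and 4.12, 4.54 and 4.34 FPKM in Control. As for Eno3, the 3 groups did not overlap, with Fosl2 Tg lowest and Ko-labelled libraries highest, at 1.94 times the Control mean. The log2 differences were −0.62 ± 0.06 for Fosl2 Tg from Control (limma adjusted p = 0.000966), 0.82 ± 0.06 for Ko-labelled libraries from Control (0.000412) and −1.44 ± 0.06 between Fosl2 Tg and Ko-labelled libraries (4.12e-06).

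Slc16a1 was at 33.7, 43.9 and 44.5 FPKM in Fosl2 Tg, 57.8, 62.4 and 57.9 FPKM in Ko-labelled libraries and 50.2, 54.2 and 58.5 FPKM in Control. Fosl2 Tg lay below the overlapping other groups. The log2 difference was −0.41 ± 0.11 from Control (limma adjusted p = 0.0291) and −0.54 ± 0.11 from Ko-labelled libraries (0.00671). Slc16a3 made up 5.75 ± 0.47% of the summed FPKM of both transporters in Fosl2 Tg, 12.4 ± 1.0% in Ko-labelled libraries and 7.41 ± 0.44% in Control (mean ± SD, n = 3).

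**Figure D3:**
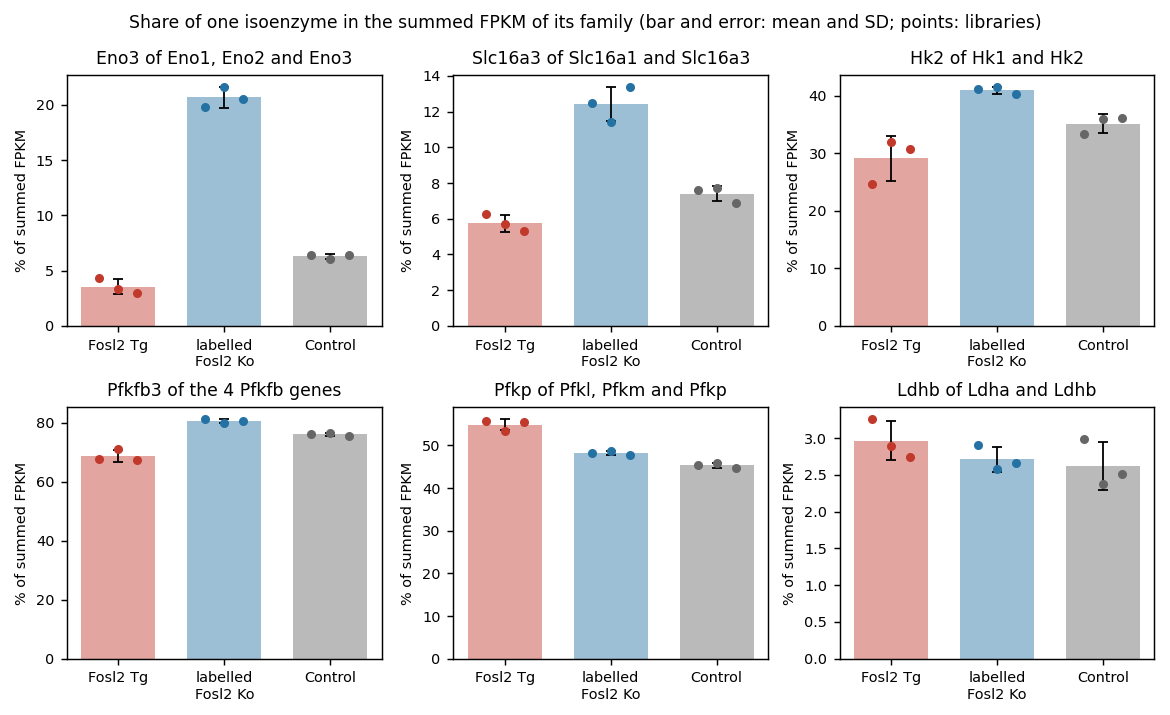
Share of a single isoenzyme or transporter in the summed FPKM of its family, in percent from 0, for Fosl2 Tg, Ko-labelled libraries and Control; bars and error bars give the mean and SD, and points the libraries. Eno3 makes up 20.7% of enolase FPKM in Ko-labelled libraries and 6.31% in Control, and the share of Pfkp is highest in Fosl2 Tg at 54.9%.

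At the entry to the mitochondrion, 1 of 3 pyruvate dehydrogenase kinase genes passed in any comparison. Pdk3, whose product inactivates pyruvate dehydrogenase, was at 17.1, 20.5 and 20.6 FPKM in Fosl2 Tg, 27.8, 27.8 and 27.4 FPKM in Ko-labelled libraries and 22.2, 22.7 and 25.8 FPKM in Control. The 3 groups did not overlap. The log2 difference of Fosl2 Tg was −0.27 ± 0.08 from Control (limma adjusted p = 0.0436) and −0.49 ± 0.08 from Ko-labelled libraries (0.00291). Over the alternatives the difference from Control came down to −0.15. Pdha1, the catalytic alpha subunit of pyruvate dehydrogenase, was at 47.2, 57.1 and 56.7 FPKM in Fosl2 Tg, 64.8, 69.1 and 63.8 FPKM in Ko-labelled libraries and 61.0, 62.0 and 63.4 FPKM in Control. It fell in Fosl2 Tg against Ko-labelled libraries (−0.30 ± 0.07, limma adjusted p = 0.0173) and missed the threshold against Control (−0.21 ± 0.07, limma adjusted p = 0.0688).

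The kinase genes Pdk1 and Pdk2 passed in no comparison. Pdk1, a target of Hif1a, was at 27.0, 18.7 and 20.1 FPKM in Fosl2 Tg, 19.7, 20.1 and 18.7 FPKM in Ko-labelled libraries and 20.2, 19.3 and 18.3 FPKM in Control. Fosl2 Tg library 1 stood above the other 8 libraries, which overlapped. Pdk2 was likewise highest in Fosl2 Tg library 1, at 3.83 FPKM, against 1.83 to 2.74 FPKM in the other 8 libraries.

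Of the 4 genes of oxygen sensing and hypoxia, Egln3 had the largest change. Egln3 (PHD3) and Egln1 (PHD2) encode prolyl hydroxylases that mark Hif1a for degradation when oxygen is present, and in mammalian cells Egln3 is itself induced by hypoxia. Egln3 lies at chr12:54178981-54203874 (mm10). It was at 2.98, 3.15 and 4.44 FPKM in Fosl2 Tg, 0.825, 0.988 and 0.953 FPKM in Ko-labelled libraries and 1.56, 1.45 and 1.21 FPKM in Control. The groups did not overlap, in the reverse order of Eno3 and Slc16a3, and the Fosl2 Tg mean was 2.503 times the Control mean. On the log2(FPKM + 1) scale, which understates the change of such low genes, the difference was 0.90 ± 0.12 from Control (limma adjusted p = 0.00261) and 1.22 ± 0.12 from Ko-labelled libraries (0.000252). The difference of −0.32 ± 0.12 between Ko-labelled libraries and Control did not pass (limma adjusted p = 0.202). The authors' deposited table lists it as significant, with a log2 ratio of −0.61 and a q-value of 0.0081.

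Egln1 was at 19.5, 21.8 and 21.0 FPKM in Fosl2 Tg, 20.3, 21.7 and 21.6 FPKM in Ko-labelled libraries and 23.3, 24.2 and 24.2 FPKM in Control. Control was highest without overlap, and the difference of Fosl2 Tg from Control passed (−0.20 ± 0.05, limma adjusted p = 0.0286). Hif1a itself was at 47.3, 58.6 and 60.3 FPKM in Fosl2 Tg, 53.4, 57.2 and 52.8 FPKM in Ko-labelled libraries and 54.2, 57.3 and 55.7 FPKM in Control, and all 3 groups overlapped. Its log2 difference of Fosl2 Tg from Control was −0.02 with a 95% interval of −0.22 to 0.18. Bnip3, a mitophagy gene induced by Hif1a, stayed between 4.76 and 5.72 FPKM in all libraries and passed in no comparison.

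**Figure D4:**
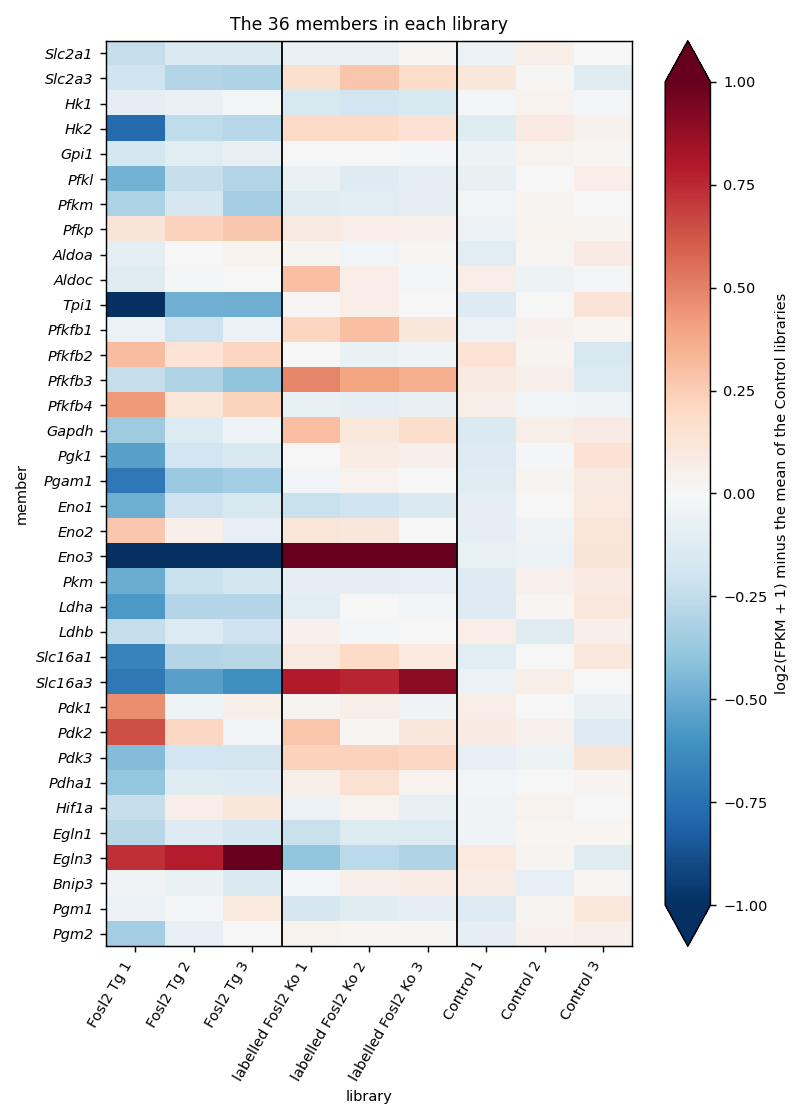
The 36 members in each library as log2(FPKM + 1) minus the mean of the 3 Control libraries, from blue (lower) to red (higher), with the scale ending at 1 in each direction. Fosl2 Tg library 1 is the bluest column for Tpi1, Hk2, Pgam1 and Slc16a1, and Eno3 and Slc16a3 are blue in all Fosl2 Tg libraries and red in all libraries labelled Fosl2 Ko.

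Genes next to this pathway were counted from lists with fixed symbols. For scale, 8.53% of all genes tested were higher and 15.1% lower in Fosl2 Tg against Control. In Ko-labelled libraries against Control, 2.14% were higher and 2.32% lower. No share over all genes was computed at an unadjusted p. Of 15 tested HIF pathway and hypoxia genes, 5 fell in Fosl2 Tg against Control (33.3%) and 10 did not pass in limma, and 1 rose in Ko-labelled libraries (6.67%). P4ha1, a collagen prolyl hydroxylase subunit, followed the order of Eno3, with 7.62 ± 0.14 FPKM in Fosl2 Tg, 12.3 ± 0.1 FPKM in Ko-labelled libraries and 9.85 ± 0.23 FPKM in Control (SD, n = 3). Its log2 differences from Control were −0.33 ± 0.04 in Fosl2 Tg (limma adjusted p = 0.00136) and 0.29 ± 0.04 in Ko-labelled libraries (0.00448). Higd1a fell from 31.0 ± 3.2 FPKM in Control to 23.7 ± 1.6 FPKM in Fosl2 Tg (SD, log2 difference −0.37 ± 0.08, limma adjusted p = 0.0163). Vegfa, which encodes an angiogenic growth factor, fell in Fosl2 Tg against Control (−0.36 ± 0.08, limma adjusted p = 0.0212). Its means were 0.919 FPKM in Fosl2 Tg and 1.47 FPKM in Control, close to the filter of 1 FPKM.

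Of the 3 tested other glycolytic isoenzymes, Galm alone passed. Galm encodes the mutarotase that interconverts the anomers of glucose and galactose, and it averaged 3.97 ± 0.52 FPKM in Fosl2 Tg, 12.3 ± 1.0 FPKM in Ko-labelled libraries and 8.24 ± 0.40 FPKM in Control (SD, n = 3). It fell in Fosl2 Tg by 0.90 ± 0.09 in log2 against Control (limma adjusted p = 0.000862) and rose in Ko-labelled libraries by 0.53 ± 0.09 (0.0139). Among 5 tested other lactate genes, Bsg, which encodes the chaperone that brings MCT1 and MCT4 to the membrane, fell in Fosl2 Tg against Control (−0.33 ± 0.07, limma adjusted p = 0.0182). Slc16a6 rose and Slc16a10 fell in Ko-labelled libraries (0.28 ± 0.05, limma adjusted p = 0.0168, and −0.37 ± 0.08, 0.0373). Slc16a10 carries aromatic amino acids.

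In the pentose phosphate pathway, 2 of 8 genes fell in Fosl2 Tg against Control (25%, against 15.1% of all genes). These were Tkt (transketolase, −0.36 ± 0.08, limma adjusted p = 0.0181) and Rpia (ribose 5-phosphate isomerase, −0.30 ± 0.08, 0.0269). In Ko-labelled libraries 0 of 8 passed in limma, and 1 had an unadjusted p under 0.05. Of 9 genes of pyruvate entry and the pyruvate dehydrogenase complex, Pdp1, the phosphatase that reactivates the complex, rose in Fosl2 Tg (0.34 ± 0.05, limma adjusted p = 0.00427) and Pdhx, a structural subunit, fell (−0.32 ± 0.07, 0.0137). Of 9 genes of the NADH shuttles, the 2 aspartate-glutamate carrier genes moved apart in Fosl2 Tg against Control, with Slc25a12 higher (0.28 ± 0.05, limma adjusted p = 0.00998) and Slc25a13 lower (−0.61 ± 0.11, 0.00832). Slc25a12 fell in Ko-labelled libraries (−0.31 ± 0.05, limma adjusted p = 0.0166). Among 12 glycogen and glucose phosphate genes, 0 passed in limma in either comparison with Control; at an unadjusted p under 0.05 there were 2 higher and 3 lower in Fosl2 Tg, and 1 higher and 1 lower in Ko-labelled libraries.

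The sugar transporter list had 3 tested genes, and Slc2a9, a urate transporter, rose in Fosl2 Tg against Control (0.28 ± 0.09, limma adjusted p = 0.0475). Txnip, which restrains glucose uptake, averaged 27.3 ± 13.4 FPKM in Fosl2 Tg and 13.8 ± 0.7 FPKM in Ko-labelled libraries (SD, n = 3; log2 difference 0.84 ± 0.28, limma adjusted p = 0.0437). In Fosl2 Tg against Ko-labelled libraries, 17.4% of all genes tested were higher and 20.7% lower. The HIF and hypoxia list then had 3 genes higher (20%) and 3 lower (20%) in limma. The list of other lactate genes had 1 higher (20%), the amino acid carrier Slc16a10, and 3 lower (60%), among them Bsg and Slc16a6. The pentose phosphate list had 1 higher (12.5%) and 2 lower (25%). The pyruvate list and the NADH shuttle list each had 1 higher (11.1%) and 3 lower (33.3%). In the same comparison, 3 glycogen and glucose phosphate genes fell (25%).

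Genes of the cell cycle, counted because they mark dividing cells, moved with the members in Fosl2 Tg. Against Control, 28 of the 30 on the list fell (93.3%, against 15.1% of all genes), with a median log2 difference of −0.88. Against Ko-labelled libraries 27 fell (90%, against 20.7%), with a median of −0.61. Between Ko-labelled libraries and Control, 0 of 30 passed in limma, while 9 were lower at an unadjusted p under 0.05 and the median was −0.21. Library 1 was the lowest of each group here: the median deviation of the cell cycle genes from their group mean was −0.28 in log2 in Fosl2 Tg library 1, −0.19 in Ko-labelled library 1 and −0.20 in Control library 1. For 9 enzymes of the main pathway it was −0.20 in Fosl2 Tg library 1, −0.02 in Ko-labelled library 1 and −0.13 in Control library 1. The part of cell cycle genes in the differences of the members was not tested.

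The authors' deposited table of differences has 4122 entries, where the FPKM table has 23849 genes, and it lists 16 of the 36 members. By the q-values in the authors' deposited table, 9 were lower and 3 higher (Pdk2, Pfkfb4 and Egln3) in Fosl2 Tg against Control. In Ko-labelled cells against Control 3 were higher (Eno3, Slc16a3 and Pfkfb3) and 1 lower (Egln3). In Ko-labelled cells over Fosl2 Tg, 12 were higher and 2 lower (Pfkfb4 and Egln3). Each of the 16 listed members has a q-value under 0.05 there in at least 1 comparison. The counts are therefore of members already in that list and not of all 36. The shares over all entries were not computed, so these counts have no background beside them. The authors also give, in the authors' deposited table, a log2 ratio for Eno3 of −1.14 in Fosl2 Tg and 1.76 in Ko-labelled cells, each over Control.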

How the data were processed

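The labels' protocols describe a directional kit with poly-A selection. The submitters' processing notes name TopHat, Cufflinks, Cuffdiff and mm10; versions, settings, strand option and annotation were found in no source used here. The authors deposited a table of FPKM for every gene in each library, per its header, and these values were used unchanged. A second table deposited by the authors, from Cuffdiff, holds group FPKM, log2 ratios, p-values and q-values and served only for comparison. FPKM give no counts, so no count model was used. Values were analysed as log2(FPKM + 1) for 10340 genes with a mean of at least 1 FPKM. All 9 libraries entered a single fit in limma 3.58.1 (R 4.3.3) with a variance trend, no covariate and 6 residual degrees of freedom, and p-values were adjusted over all genes by Benjamini-Hochberg with 0.05 as the threshold. The script was tested on simulated data. Between 21.1% and 38.0% of a library's summed FPKM fell on small RNA genes, so their removal with rescaling was an alternative.

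The 36 members and all lists were chosen with earlier results of these data known. Members were named with per-library values where they passed in at least 1 comparison or led their role in FPKM; others, such as Pdk1 and Pdk2, were added after their values were seen. From each list, up to 3 called genes with the smallest adjusted p per comparison could be named. Depth was estimated from genes with a single annotated transcript, whose low FPKM are whole multiples of a step; at least 99.0% of 169 to 207 genes per library lay within 0.1 of a whole number. Fragment numbers cover counting error only. Exons and copies were read from GENCODE M21. Alternatives covered the pseudocount, the filter, scaling, library weights, the groups in the fit, a replicate block and leaving out each library. Leaving out Fosl2 Tg library 1 and Control library 1 together was added after seeing the data.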

Additional observations from a re-analysis of the deposited data

How the results depend on the processing

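Called differences of the members kept their sign in all 753 refits that gave a value, and 138 of these lost the call. In Fosl2 Tg against Control, 1 of 28 members was higher with a minimum mean of 5 FPKM (3.57%, against 8.16% of all genes). The number higher was 4 with library weights (11.1%, against 22.9%) and 1 with only these 2 groups fitted (2.78%, against 2.78%). With a library left out it was 1 to 3 (2.78% to 8.33%, against 3.21% to 9.16%). The number lower was 9 with small RNA genes left out (25%, against 10.4%) and 2 with only these groups fitted (5.56%, against 5.55%). With a library left out the number lower was 4 to 15 (11.1% to 41.7%, against 5.52% to 15.4%). For Ko-labelled libraries against Control, the number higher was 10 with library weights (27.8%, against 20.3% of all genes). The number lower was 1 without the filter (2.78%, against 1.37%) and 10 with library weights (27.8%, against 31%). It was 2 with only these groups fitted (5.56%, against 5.04%). Without both Fosl2 Tg library 1 and Control library 1, chosen after seeing the data, it was 3 (8.33%, against 7.79%). With a library left out it was 0 to 2 (2 without Fosl2 Tg library 1, 5.56%, against 7.21%). For Fosl2 Tg against Ko-labelled libraries, 0 of 28 members were higher with a minimum mean of 5 FPKM, against 16.7% of all genes. That filter removes Egln3, Pfkfb2 and Pfkfb4. The number higher was 5 with median-of-ratios scaling (13.9%, against 19.7%) and 5 with quantile normalization (13.9%, against 18.7%). It was 6 with small RNA genes left out (16.7%, against 20.3%) and 7 with library weights (19.4%, against 25.3%). Without both Fosl2 Tg library 1 and Control library 1 it was 5 (13.9%, against 17.3%). With a library left out it was 1 to 4 (2.78% to 11.1%, against 10.5% to 18.1%). The number lower was 11 to 17 with a library left out (30.6% to 47.2%, against 10.6% to 21.6%). The estimation of library weights stopped before reaching its tolerance, and the cause of these shifts was not tested. Over all genes, the share of calls that were higher in Fosl2 Tg against Control was 36.1% as reported, 46.7% with median-of-ratios scaling, 45.5% with quantile normalization and 57.5% with small RNA genes left out; for Ko-labelled libraries against Control it was 47.9% as reported and 62.5% with small RNA genes left out. Over all genes tested, libraries of the same number in different groups did not deviate together. Correlations were −0.13 to 0.10 over 9 pairs, and −0.12 to 0.14 over 18 pairs of different numbers. The numbers were therefore not taken to pair libraries, although library 1 was the lowest of each group in the cell cycle genes. With a replicate block, 3 members were higher (8.33%, against 11.6% of all genes) and 18 lower (50%, against 19.9%) in Fosl2 Tg against Control. In Ko-labelled libraries against Control, 3 were then higher (8.33%, against 2.12%) and 0 lower, against 2.63%. In Fosl2 Tg against Ko-labelled libraries, 4 were then higher (11.1%, against 19.6%) and 18 lower (50%, against 24.8%). Depth limits the low genes most: by the estimate above, Egln3 was covered by 69.6 to 673 fragments per library.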
